A study of Mus musculus with 27 samples.

Results

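The mitochondrial ribosomal protein genes are the nuclear genes for the protein parts of the ribosome inside mitochondria. They were taken as every probeset with a single gene symbol of the form Mrpl or Mrps plus a number and a mean log2 expression of at least 6 over 27 arrays, with the brightest probeset kept for each gene. This gave 77 genes of the 13989 genes that met the same level with a single symbol: 48 Mrpl genes, named for the large subunit, and 29 Mrps genes, named for the small subunit. No Mrpl or Mrps gene fell under the level, since the lowest member mean was 7.83 and the highest 11.7. Mrpl53 shares its only probeset with Ccdc142 and so was not a member.

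RNA from mouse embryonic stem (ES) cells was hybridised to Affymetrix gene arrays after transfection of small interfering RNAs (siRNAs). The targets were MOF, MSL1 and NSL1, and each of 12 experiments had a control array of cells given negative control siRNAs. In PGK12.1, a female line from a 129 female and a (129 X PGK)F1 male, the knockdown groups were NSL1 (experiments C, D and E), MOF (experiments 1, 2 and 3), MOF and MSL1 together (experiments D and E) and MSL1 (experiments A, B and C), each set against the control array of the same letter or number. In WD44, a male line from BL6 embryos, and in E14, labelled as a male hybrid line from a BL6 female and a Cast male, MOF knockdown was set against control in experiments 1 and 2 of each line. Cells received 100 pmol of siRNA for 48 h, with 50 pmol of Msl1 siRNA added for the double target. In PGK12.1 experiments 1 and 2, MOF knockdown and control cells alike had 2 rounds, the second with 400 pmol for 24 h. The labels do not say that experiments used separately thawed cells, so p-values measure the spread between these experiments. An effect is read for its own line only, but the spread was estimated over the arrays of all lines together. PGK12.1 has most of the arrays, so p-values for WD44 and E14 rest largely on the spread in PGK12.1. Experiment C lent its control array to both NSL1 and MSL1, and experiments D and E lent theirs to both NSL1 and the double target.

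MOF, encoded by Kat8, is a histone acetyltransferase that works in 2 complexes, one built around MSL1 and the other, the NSL complex, around NSL1. In mammals the NSL complex is known to sit at promoters of broadly expressed genes. Mitochondrial ribosomes translate the few messages of mitochondrial DNA, which encode parts of the respiratory chain, while all of their own proteins come from the nucleus. Many of these proteins have a counterpart in bacterial ribosomes (44 of the 77 here), while others arose with the mitochondrion (29 of the 77, with 4 not classed).

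Kat8 was lower by -1.22 (log2) after MOF knockdown in PGK12.1 (adjusted p = 5.75e-08), with 38.7% to 48% of the control level left over the experiments. It was lower by -0.84 in WD44, by -0.68 in E14 and by -0.87 after the double target, and Msl1 was lower by -0.97 after MSL1 knockdown and by -0.46 after the double target. The NSL1 label was not settled by the arrays. Of 2 probesets for Kansl1, one fell by 0.24 (adjusted p = 0.000874) and the other rose by 0.50 in the arrays labelled NSL1 (NSL1 below means this label). The first stood at 0.015 to 0.22 in the other comparisons. The second also rose after MOF knockdown in PGK12.1 (by 0.50) and in WD44 (by 0.745), so its rise was not particular to the NSL1 arrays. Nsl1, a kinetochore gene of the same name, stood at 0.16 (adjusted p = 0.0502). Array medians ran between 6.22 and 7.96 in steps between sets of experiments, so levels are compared only within an experiment. All 10 ES cell markers had a mean of at least 6 in every group.

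Promoter sequences are shown for members that the results below turn on. They come from RefSeq on GRCm38.p6, cover 250 bases before to 50 bases after the annotated start, and were matched for 68 of the 77 members. Capitals mark exact matches, on either strand, to letters bound by NRF1 (its palindromic site with 1 open base), by ETS factors such as GABPA (CCGGAAG) and by YY1 (the letters in capitals in Mrpl37), 3 kinds of factor known to act at nuclear genes for mitochondrial proteins. Mrps21 had the lowest value after NSL1 knockdown and carried both NRF1 and ETS letters (chr3:95871465-95871764, minus strand). Mrpl37 (chr4:107066817-107067116, minus strand) and Mrps11 (chr7:78782881-78783180, plus strand) carried YY1 letters and were both lower after NSL1 knockdown. Mrps17 (chr5:129715247-129715546, plus strand) was lower in 3 comparisons with none of the 3 letter sets, and Mrpl49 (chr19:6057706-6058005, minus strand), also with none, was the member higher in the most comparisons.
Mrps21: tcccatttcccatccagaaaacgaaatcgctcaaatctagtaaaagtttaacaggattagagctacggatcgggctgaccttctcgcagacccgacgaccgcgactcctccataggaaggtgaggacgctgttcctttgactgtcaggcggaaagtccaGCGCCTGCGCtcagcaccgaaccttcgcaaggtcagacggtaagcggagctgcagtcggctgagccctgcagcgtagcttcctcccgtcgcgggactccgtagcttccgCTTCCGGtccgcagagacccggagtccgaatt
Mrpl37: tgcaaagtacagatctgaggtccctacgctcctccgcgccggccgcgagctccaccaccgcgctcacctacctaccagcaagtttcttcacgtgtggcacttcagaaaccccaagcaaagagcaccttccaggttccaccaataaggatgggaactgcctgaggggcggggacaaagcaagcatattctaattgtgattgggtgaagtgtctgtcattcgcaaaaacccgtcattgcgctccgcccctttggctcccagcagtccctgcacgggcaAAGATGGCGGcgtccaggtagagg
Mrps11: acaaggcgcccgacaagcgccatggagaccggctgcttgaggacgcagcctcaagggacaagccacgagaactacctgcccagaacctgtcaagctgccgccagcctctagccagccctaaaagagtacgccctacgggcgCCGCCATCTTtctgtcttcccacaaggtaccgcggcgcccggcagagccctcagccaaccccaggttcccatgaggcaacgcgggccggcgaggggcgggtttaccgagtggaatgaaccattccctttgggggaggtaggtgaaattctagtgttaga
Mrps17: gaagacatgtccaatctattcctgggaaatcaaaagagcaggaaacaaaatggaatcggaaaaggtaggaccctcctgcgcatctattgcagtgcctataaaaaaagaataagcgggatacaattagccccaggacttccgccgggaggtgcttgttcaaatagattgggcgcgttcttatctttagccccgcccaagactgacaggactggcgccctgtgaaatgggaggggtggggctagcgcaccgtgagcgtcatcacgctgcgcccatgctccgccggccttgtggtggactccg
Mrpl49: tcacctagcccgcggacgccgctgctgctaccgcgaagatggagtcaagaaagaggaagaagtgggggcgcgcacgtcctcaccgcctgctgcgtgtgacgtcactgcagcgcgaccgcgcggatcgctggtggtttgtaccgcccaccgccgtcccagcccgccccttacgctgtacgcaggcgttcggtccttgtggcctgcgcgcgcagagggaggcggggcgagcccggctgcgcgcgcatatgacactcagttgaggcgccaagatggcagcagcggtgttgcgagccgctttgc

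ETS letters were in 25 of 68 member promoters (36.8%) and in 9.93% of 27025 gene promoters of the same length. NRF1 letters were in 13 (19.1%, against 5.19% of all) and YY1 letters in 5 (7.35%, against 0.995% of all). Together 37 of the 68 promoters held at least 1 of the 3. SP1 letters (GGGCGG) were in 50% of member promoters and 38.2% of all, CCAAT in 38.2% and 41.1%, the E-box CACGTG in 7.35% and 8.09%, and the ZNF143 letters in 0 members and 0.329% of all. The 5 members with YY1 letters were Mrpl35, Mrpl37, Mrps11, Mrps18a and Mrps27, and each was lower after NSL1 knockdown. Among the 38 promoters of members lower after NSL1 knockdown 9 held NRF1 letters (23.7%) and 12 ETS letters (31.6%), against 4 (13.3%) and 13 (43.3%) among the other 30. A match is a description of the letters only, and its link with the response was not tested.

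NSL1 knockdown was followed by lower levels of most members. At an adjusted p under 0.05, 42 of the 77 genes were lower (54.5%) and 4 were higher (5.19%), where 21.4% of the 16283 probesets tested were lower and 18.4% higher. The median member stood at -0.20 and the median of all probesets at -0.0083 (log2 knockdown minus control). Large subunit genes gave 28 lower and 3 higher of 48, and small subunit genes 14 lower and 1 higher of 29. In experiments C, D and E, 79.2%, 81.8% and 85.7% of members were below 0, where 44.6%, 50.7% and 54.2% of all probesets were. All 46 called members had the same sign in each of the 3 experiments. The calls came from these same experiments, so this is no separate check. No share among all called probesets is given beside it. Without the experiment as a block 35 were lower and 3 higher, where 17.5% and 10.7% of all probesets were.

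Mrps15, the small subunit counterpart of a bacterial protein that binds ribosomal RNA early in assembly, read 10.36, 10.31 and 10.28 in NSL1 arrays C, D and E, against 10.83, 10.90 and 10.83 in their control arrays. All NSL1 arrays lay under all control arrays, with differences that lay close together. Mrps15 fell by 0.53 (SE 0.04, adjusted p = 3.02e-07), the smallest p among the members. Mrps21, also of the small subunit, read 9.48, 9.42 and 9.35 in the NSL1 arrays and 10.15, 10.13 and 10.25 in the controls. It fell by 0.75 (SE 0.08, adjusted p = 3.11e-06), and its groups did not overlap. Mrps17, another small subunit protein with a bacterial counterpart, read 7.44, 6.86 and 6.74 in the NSL1 arrays against 8.27, 7.54 and 7.43 in the controls. It was lower in each experiment, while the groups overlapped, since NSL1 array C lay just above control array E. It fell by 0.74 (SE 0.07, adjusted p = 1.84e-06).

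Mrpl11, which forms the base of the stalk where elongation factors dock, read 10.15, 10.15 and 10.07 in NSL1 arrays and 10.75, 10.87 and 10.85 in controls. The groups stood well apart, and Mrpl11 fell by 0.67 (SE 0.07, adjusted p = 3.74e-06). Mrpl37, a large subunit protein without a bacterial counterpart, read 10.53, 10.43 and 10.26 in NSL1 arrays and 10.98, 10.89 and 10.82 in controls. It fell by 0.47 (SE 0.05, adjusted p = 2.45e-06) with no overlap. Mrps18c, one of 3 mammalian proteins related to a single bacterial one, read 9.69, 9.58 and 9.36 in NSL1 arrays and 10.38, 10.09 and 10.06 in controls, and fell by 0.63 (SE 0.07, adjusted p = 5.41e-06).

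Its relatives did not move as one. Mrps18a, which sits in the large subunit despite its name, fell by 0.48, and Mrps18b stood at 0.07 (adjusted p = 0.384). Mrps36, described also as part of the oxoglutarate dehydrogenase complex, fell by 0.61 (SE 0.12, adjusted p = 0.000786). With Mrps26, which fell by 0.60, these made 6 members that were past 1.5-fold: Mrps21, Mrps17, Mrpl11, Mrps18c, Mrps36 and Mrps26. Mrpl21 fell by 0.57 and Mrpl30 by 0.52, both large subunit proteins with bacterial counterparts. Mrpl3, near the catalytic centre, fell by 0.35, and Mrps27, an RNA-binding pentatricopeptide repeat protein, by 0.34.

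The 4 members that rose after NSL1 knockdown did so by small amounts. Mrpl32, a large subunit protein matured by a mitochondrial protease, rose by 0.29 (SE 0.09, adjusted p = 0.0169), with values of 9.15, 9.42 and 9.37 in NSL1 arrays and 9.09, 8.96 and 8.94 in controls. The difference was small in experiment C (0.06) and larger in the others, and the call was lost when any array of experiment D or E was left out (adjusted p up to 0.121). Mrps6 rose by 0.20 and Mrpl17 by 0.18 (adjusted p = 0.00584 and 0.0071), each in 3 of 3 experiments, and both missed the threshold without NSL1 array C (0.0607 and 0.0556). Mrpl49 rose by 0.14 and missed it without the experiment block (adjusted p = 0.0703) and without several single arrays (up to 0.15).

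**Figure D1:**
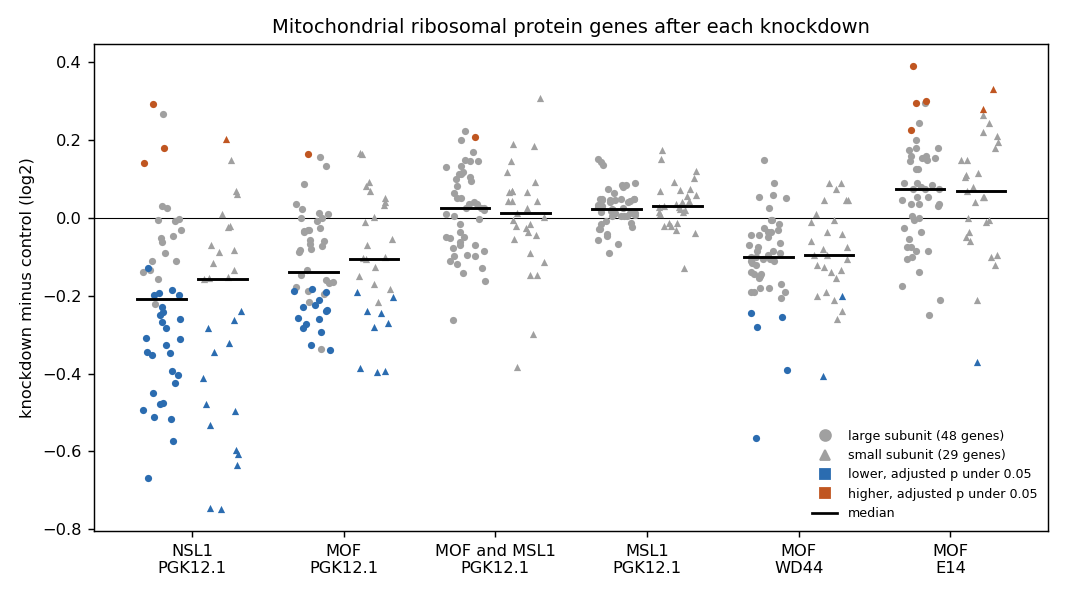
Each point is 1 of the 77 genes, with the log2 difference between knockdown and control on the vertical axis and the 6 comparisons across, circles for large and triangles for small subunit genes, blue for lower and orange for higher at an adjusted p under 0.05. Black bars are medians; the blue points are most numerous after NSL1 (42) and MOF (24) knockdown in PGK12.1, and absent after MSL1 and after the double target.

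MOF knockdown in PGK12.1 was followed by differences in the same direction, with a member median nearer 0. The sizes of the MOF and NSL1 effects were not tested against each other. They come from different sets of experiments with, in part, different rounds of siRNA. Of the 77 members, 24 were lower (31.2%) and 1 was higher (1.3%), where 13.9% of all probesets were lower and 9.49% higher. The member median was -0.13 against 0 over all probesets, and no member passed 1.5-fold. The lower genes were 15 of 48 large subunit and 9 of 29 small subunit genes. All 25 called members kept their sign in experiments 1, 2 and 3, which is again no separate check, since the calls came from those experiments. Without the experiment as a block, 9 members were lower and 0 higher (4.99% and 2.69% of all probesets), and the 9 were among the 24. Leaving out either array of experiment 3 gave 14 members, and either array of experiment 2 gave 16. No share of all probesets was counted for these fits.

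Mrpl35, a large subunit protein with a bacterial counterpart, read 9.39, 9.48 and 10.05 in MOF arrays 1, 2 and 3, against 9.77, 9.74 and 10.39 in controls. It was lower in each experiment and fell by 0.33 (SE 0.05, adjusted p = 0.000351), though the groups overlapped because experiment 3 ran higher throughout. Mrpl1, of the mobile stalk beside the tRNA exit, read 8.43, 8.51 and 9.32 in MOF arrays and 8.67, 8.86 and 9.75 in controls. It fell by 0.34 (SE 0.05, adjusted p = 0.000426). Mrps15 read 10.48, 10.42 and 10.83 in MOF arrays and 10.74, 10.67 and 11.04 in controls, and fell by 0.24 (SE 0.04, adjusted p = 0.00145). In each of these genes the order within every experiment was the same.

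Mrps18c fell by 0.39 (SE 0.07, adjusted p = 0.00145) and Mrps9, a small subunit protein whose bacterial counterpart contacts tRNA, by 0.27 (SE 0.05, adjusted p = 0.00192). Mrpl37 fell by 0.26 and Mrpl3 by 0.26. Mrps17 read 7.90, 7.95 and 8.45 in MOF arrays and 8.15, 8.41 and 8.93 in controls, and fell by 0.40 (SE 0.08, adjusted p = 0.00188). Its level differed widely between experiments, and without the block its adjusted p was 0.259. Mrps36 fell by 0.39, ranging over experiments between -0.67 and -0.10. Mrps11 stood at -0.15 (adjusted p = 0.124) and Mrpl44, which holds a double-stranded RNA binding domain, at -0.18 (adjusted p = 0.0526).

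**Figure D2:**
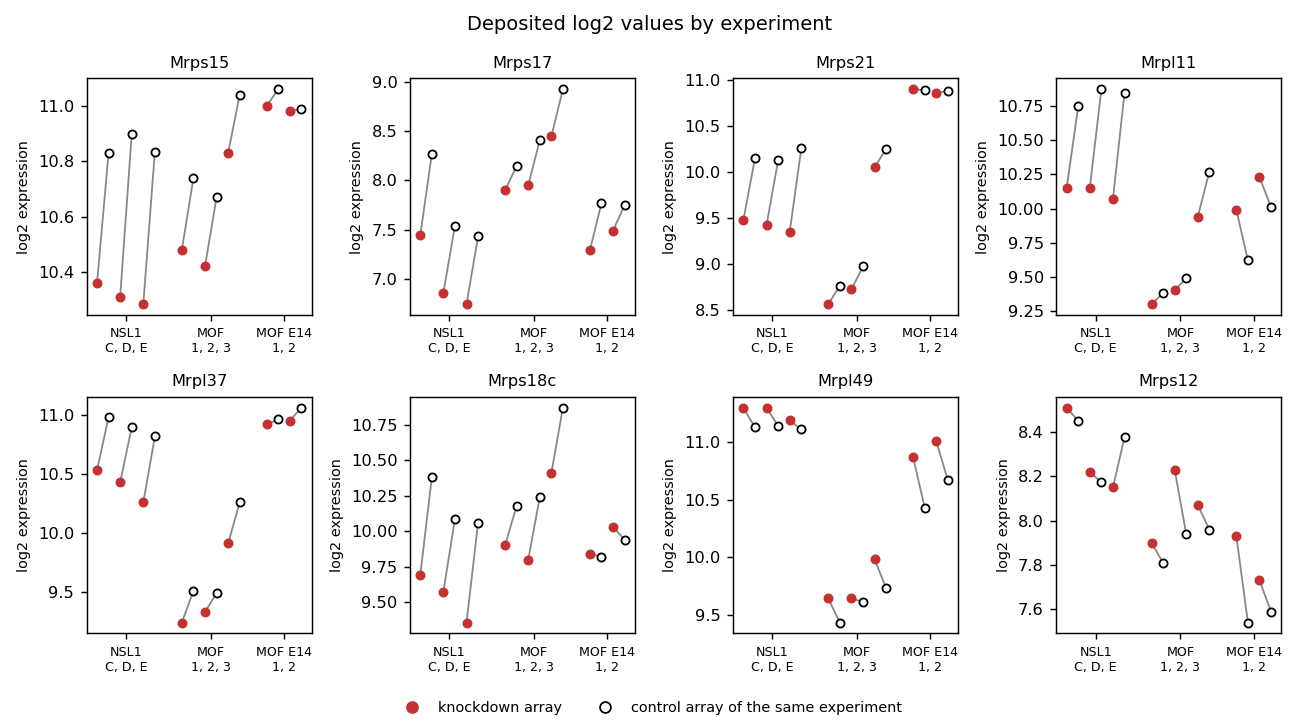
Deposited log2 values of 8 members, with a line joining each knockdown array (red) to the control array of its experiment (open circle), for NSL1 and MOF in PGK12.1 and MOF in E14. Mrps15 reads 10.28 to 10.36 in NSL1 arrays and 10.83 to 10.90 in controls, while Mrpl49 is higher in every knockdown array shown than in its control.

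The MOF and NSL1 comparisons in PGK12.1 shared no array. Of the members lower after MOF knockdown 20 were also lower after NSL1 knockdown, which is 83.3% of the 24 and 47.6% of the 42. Over all probesets the corresponding shares were 62.4% and 40.7%. The base shares differed, with 54.5% of members and 21.4% of all probesets lower after NSL1 knockdown, and 31.2% and 13.9% after MOF knockdown. A higher overlap among members is therefore not read as closer sharing. Across the 77 genes the log2 differences correlated at 0.571, against 0.566 over all 16283 probesets. These correlations run across genes, which share arrays within each comparison and are not independent replicates. The 20 were Mrpl1, Mrpl3, Mrpl4, Mrpl13, Mrpl21, Mrpl24, Mrpl30, Mrpl35, Mrpl37, Mrpl38, Mrpl42, Mrpl55, Mrps9, Mrps15, Mrps17, Mrps18a, Mrps18c, Mrps23, Mrps26 and Mrps36. Mrpl49 was higher in both. The order of sizes differed for some: Mrpl11 and Mrps21 were among the lowest after NSL1 knockdown, and Mrpl1 and Mrpl35 after MOF knockdown. In Mrpl1 the fall was 0.23 after NSL1 knockdown, with values of 8.91, 9.01 and 8.94 in NSL1 arrays and 9.20, 9.26 and 9.03 in controls.

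**Figure D3:**
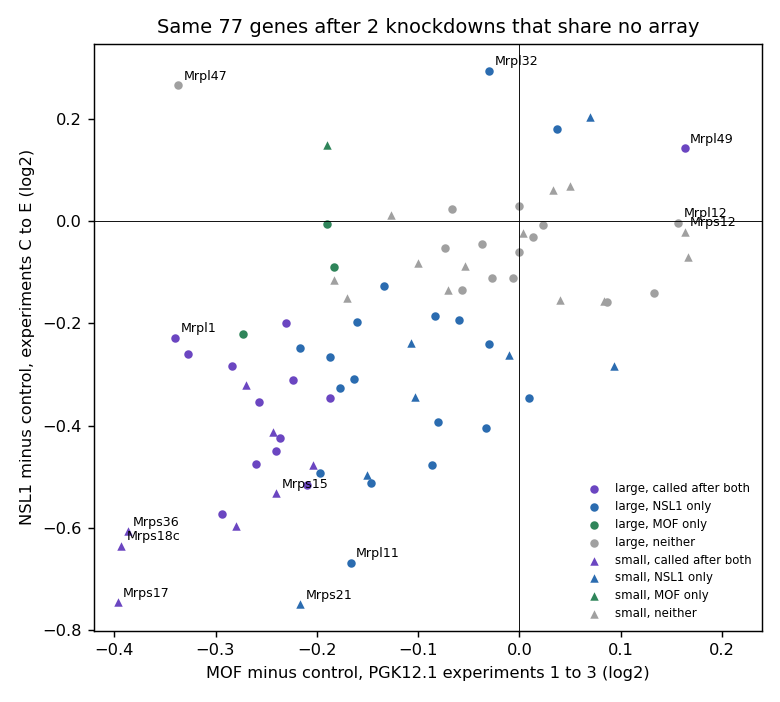
Each point is 1 of the 77 genes, by its log2 difference after MOF knockdown (horizontal, PGK12.1 experiments 1 to 3) and after NSL1 knockdown (vertical, experiments C to E), with colour for the comparisons in which it was called. The 20 genes lower in both and Mrpl49, higher in both, are purple, and the points correlate at 0.571.

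MSL1 knockdown left the members with no call. In limma's fit 0 members were higher and 0 lower, where 0.0983% of all probesets were higher and 0.086% lower. At an unadjusted p under 0.05, 3 members were higher and 0 lower, a smaller share than the 1566 of all 16283 probesets that passed it, and the smallest adjusted p was 0.386. Without the block 0 members were called either way as well (0.0368% and 0.0246% of all probesets were higher and lower). The member median was 0.03, and member differences ran between -0.13 and 0.17. Mrps15 read 10.87, 10.94 and 10.88 in MSL1 arrays A, B and C, and 10.85, 10.85 and 10.83 in controls. Mrps17 read 7.85, 8.15 and 8.35 in MSL1 arrays and 7.89, 8.03 and 8.27 in controls, and Mrpl11 10.56, 10.68 and 10.64 against 10.49, 10.53 and 10.75 in controls. In these genes the groups overlapped or lay within 0.1 of each other.

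The differences were tested directly between knockdowns that share control arrays. The NSL1 effect lay below the MSL1 effect for 38 of 77 members and above it for 0, where 17% of all probesets were lower and 15.4% higher in that contrast. Mrps15 differed by -0.57 (SE 0.05), with effects of -0.53 after NSL1 and 0.04 after MSL1 knockdown, Mrpl30 by -0.67 (SE 0.07) and Mrps17 by -0.82 (SE 0.09). Against the double target, the NSL1 effect was lower for 42 members and higher for 0, where 15.2% of all probesets were lower and 11.3% higher. Mrps21 differed there by -0.70 (SE 0.09) and Mrpl11 by -0.59 (SE 0.09).

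After MOF and MSL1 were targeted together, 1 member was higher and 0 lower (3.24% and 3.19% of all probesets), with a member median of 0.02. At an unadjusted p under 0.05 in limma's fit 7 were higher and 3 lower, a smaller share than the 3400 of all 16283 probesets that passed it. The 1 called was Mrpl49, at 11.38 and 11.27 in double target arrays D and E and 11.14 and 11.11 in controls, which rose by 0.21 (SE 0.06, adjusted p = 0.0465). The call was lost without the experiment block (adjusted p = 0.0549) and when any of its 4 arrays was left out (0.073 to 0.31). Without the block 2 other members were higher and 2 lower (2.69% and 7.21% of all probesets). The 2 experiments differed, with a member median of 0.07 in D and -0.04 in E. Mrps15 read 10.83 and 10.68 in double target arrays against 10.90 and 10.83 in controls, and Mrps21 10.34 and 9.90 against 10.13 and 10.25 in controls. Kat8 kept 52.8% to 56.3% of its control level in these arrays. The 2 sets of MOF experiments in PGK12.1 used different siRNA mixtures, control arrays and, in part, rounds, and their effects were not tested against each other.

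In WD44, 7 of 77 members were lower after MOF knockdown (9.09%) and 0 were higher, where 7.98% of all probesets were lower and 4.38% higher, so that the share of members was near the background. At an unadjusted p under 0.05 in limma's fit 19 were lower and 1 higher, a smaller share than the 4852 of all 16283 probesets that passed it. The member median was -0.10, against -0.02 over all probesets. Mrpl42, a mitochondria-specific large subunit protein, read 9.27 and 9.54 in MOF arrays, with both controls higher (9.94 in the lower of them). It did not overlap and fell by 0.57 (SE 0.09, adjusted p = 0.00255). Mrpl50, also mitochondria-specific, read 10.90 and 10.93 in MOF arrays and 11.21 and 11.18 in controls, and fell by 0.28 (SE 0.06, adjusted p = 0.00802). Mrps27 fell by 0.41 with unequal experiments, -0.66 and -0.15. Mrpl22, which lines the peptide exit tunnel, fell by 0.39, Mrpl1 by 0.26, Mrpl19 by 0.25 and Mrps15 by 0.20.

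The WD44 calls rested on few arrays and on the block. Without the block 1 member was lower, Mrpl50 (adjusted p = 0.0467), where 0.522% of all probesets were lower, and without either array of experiment 1 there were 0. In experiment 1, 85.7% of members were below 0, and in experiment 2 57.1%. Of 8 feeder fibroblast markers measured, 5 were higher in this line with the block, by up to 0.97 for Acta2, where 4.38% of all probesets were. Without the block 0 were called, where 0.086% of all probesets were higher. The markers' array median over the list of 12 was 8.155 and 8.155 in MOF arrays against 8.05 and 8.085 in controls. Their part in the member values was not tested. In bulk RNA fewer cells of a type and less RNA per cell cannot be told apart.

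In E14 the members leaned the other way. Here 6 were higher (7.79%) and 1 was lower (1.3%), where 3.6% of all probesets were higher and 4.73% lower, and the member median was 0.075 against 0.005 over all probesets. Mrpl49 read 10.87 and 11.01 in MOF arrays and 10.43 and 10.67 in controls, did not overlap, and rose by 0.39 (SE 0.06, adjusted p = 0.00229). Mrps10, of the small subunit head, read 9.32 and 9.28 in MOF arrays and 8.93 and 9.01 in controls, and rose by 0.33 (SE 0.09, adjusted p = 0.0353). Mrpl15 rose by 0.30, Mrpl34 by 0.30, Mrps18b by 0.28 and Mrpl51 by 0.23. Mrps17 fell by 0.37 (SE 0.09, adjusted p = 0.0266), at 7.29 and 7.49 in MOF arrays and 7.77 and 7.75 in controls.

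Of the E14 calls only that of Mrpl49 held without the block (adjusted p = 0.0255, where 0.27% of all probesets were higher), and without either array of experiment 1 there were 0 calls. Without either array of experiment 2 Mrpl49 alone was called. Mrps12, of the decoding centre, stood at 0.27 (adjusted p = 0.108), and Mrps7, of the small subunit head, at 0.25 (adjusted p = 0.0682). Mrps15, lower after MOF knockdown in PGK12.1 and WD44, read 11.00 and 10.98 in E14 MOF arrays against 11.06 and 10.99 in controls.

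The MOF effects were tested between lines. Between E14 and PGK12.1, 2 members were higher in E14 and 0 lower, where 1.31% of all probesets were higher and 1.19% lower. Mrpl16, a large subunit protein near the tRNA binding sites, stood at 0.13 in E14 and -0.19 in PGK12.1, and Mrpl35 at -0.005 and -0.33. Between E14 and WD44, 1 member, Mrpl49, was higher in E14 and 0 lower, where 0.848% of all probesets were higher and 0.54% lower. Its effects were 0.39 in E14 and -0.105 in WD44. Between WD44 and PGK12.1 no member passed the threshold in limma's test in either direction, where 0.903% of all probesets were higher and 1.31% lower, and 2949 of all probesets passed an unadjusted p under 0.05. Because siRNA was given for a second time in PGK12.1 experiments 1 and 2 alone, line and treatment cannot be told apart in full.

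Mrps17, Mrps15, Mrpl1 and Mrpl42 were each lower in 3 of the 6 comparisons, the highest count of any member. No share of all probesets lower in 3 comparisons is given to set beside this. Mrps17 was lower after NSL1 knockdown and after MOF knockdown in PGK12.1 and E14, and the other 3 after NSL1 knockdown and after MOF knockdown in PGK12.1 and WD44. Mrpl49, which has no bacterial counterpart, was higher in 4 comparisons, while in WD44 it read 11.56 and 11.58 in MOF arrays and 11.63 and 11.72 in controls. In PGK12.1 MOF arrays it read 9.64, 9.64 and 9.98 against 9.43, 9.61 and 9.73 in controls, a rise of 0.16 whose adjusted p was 0.0296 with the block and 0.14 without. In NSL1 arrays it read 11.30, 11.30 and 11.19 against 11.13, 11.14 and 11.11 in controls. The 4 comparisons are not independent, since NSL1 and the double target share the control arrays of experiments D and E.

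A further 22 members were called in none of the 6 comparisons. The share of all probesets called in none is not given here, so this count is not read as a trait of the members. Among them Mrpl12, the stalk protein that also binds the mitochondrial RNA polymerase, read 10.44, 10.36 and 10.35 in NSL1 arrays and 10.48, 10.35 and 10.35 in controls. After MOF knockdown in PGK12.1 it stood at 0.16 (adjusted p = 0.0516). Mrps12 read 8.51, 8.22 and 8.15 in NSL1 arrays and 8.45, 8.17 and 8.38 in controls, with overlap. Mrps2 and Mrps7, with bacterial counterparts in the small subunit, stood at 0.06 and -0.16 after NSL1 knockdown (adjusted p = 0.313 and 0.0586), and Mrps30, placed in the large subunit, at -0.15 (adjusted p = 0.108).

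Experiments of the same comparison ranked the members alike to different degrees. Across the 77 genes the differences of NSL1 experiments correlated at 0.845 to 0.876, and those of MOF experiments in PGK12.1 at 0.518 to 0.603. The correlation was 0.384 between the double target experiments, 0.185 in WD44 and 0.455 in E14, and between -0.127 and 0.416 for MSL1. Each value describes 77 genes on shared arrays.

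The large and small subunit genes were compared by their median differences. After NSL1 knockdown the fitted medians were -0.21 for large and -0.16 for small subunit genes, a difference of -0.0534, while in experiments C, D and E taken alone large minus small was 0.01, 0.04 and 0.04. The sign therefore differed between the fit and the single experiments, and no direction was drawn. After MOF knockdown in PGK12.1 the fitted difference was -0.0333, and 0, -0.005 and -0.06 by experiment. In the other comparisons it was -0.006 (MSL1), 0.0111 (double target), -0.005 (WD44) and 0.005 (E14). These are differences of medians with no error of their own, and they were not tested. Moving Mrps18a and Mrps30 to the large subunit and leaving out Mrps36 gave 29 of 50 large and 12 of 26 small subunit genes lower after NSL1 knockdown. By origin, 25 of 44 members with a bacterial counterpart (56.8%) and 14 of 29 mitochondria-specific members (48.3%) were lower.

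**Figure D4:**
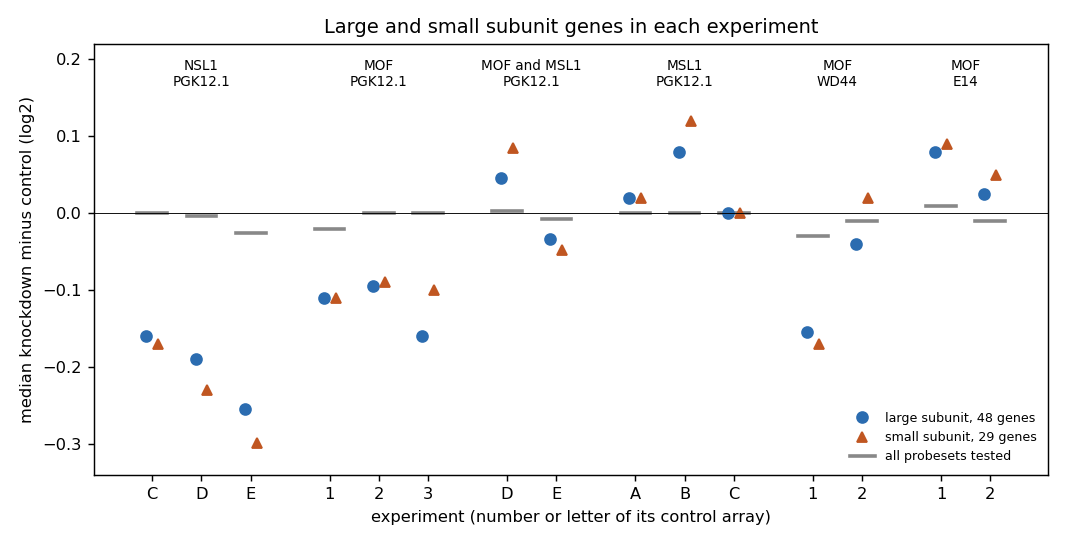
Median log2 difference between knockdown and control in each experiment for the 48 large subunit genes (blue circles), the 29 small subunit genes (orange triangles) and all probesets tested (grey bars). The circle and triangle lie within 0.06 of each other in every experiment, and both lie below the grey bar in all 3 NSL1 and all 3 MOF experiments in PGK12.1.

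Of the 8 members with a second probeset, Mrpl23, Mrps33 and Mrps36 were lower after NSL1 knockdown by both (Mrps36 by 0.61 and 0.65). Mrpl41 fell by 0.31 on the brighter probeset and stood at -0.09 on the other (adjusted p = 0.262). Mrpl47 stood at 0.27 and 0.06 after NSL1 knockdown, neither past the threshold. In E14 its dimmer probeset rose by 0.32 (adjusted p = 0.0313) while the brighter stood at 0.09, and Mrpl51 had 0.23 and 0.18, the second at an adjusted p of 0.0895. RefSeq lists pseudogenes of Mrpl23, Mrpl27, Mrpl48 and Mrps36, so probesets of these genes may read more than one copy, and their values are uncertain to that extent. Probeset positions could not be placed. The brighter probesets of Mrpl41, Mrpl51 and Mrps33 may therefore also read another copy, which was not tested.

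Other genes that serve mitochondrial translation are given as counts, to be read against the shares of all probesets: 21.4% lower and 18.4% higher after NSL1 knockdown, 13.9% and 9.49% after MOF knockdown in PGK12.1, 7.98% and 4.38% in WD44, and 4.73% and 3.6% in E14. Without the block these shares were 17.5% and 10.7% after NSL1 knockdown and 4.99% and 2.69% after MOF knockdown in PGK12.1. They were then 7.21% and 2.69% after the double target, 0.522% and 0.086% in WD44, and 0.399% and 0.27% in E14. Counts are from the fit with the block unless stated. Of 26 genes for its assembly and rRNA processing, 16 were lower and 0 higher after NSL1 knockdown (median -0.23), and 10 were lower and 0 higher after MOF knockdown in PGK12.1 (median -0.13). Eral1, a GTPase chaperone of the small subunit RNA, fell by 0.79 (SE 0.05, adjusted p = 7.4e-08) after NSL1 knockdown, and Mettl15, a methyltransferase of that RNA, by 0.75. Rpusd3, a pseudouridine synthase, fell by 0.74 after NSL1 and by 0.37 after MOF knockdown, and Fastkd2 by 0.49 and 0.33. Tfb1m, which dimethylates the small subunit RNA, fell by 0.41 after MOF knockdown in PGK12.1 and by 0.34 in WD44. For this list 4 genes were lower in WD44, 1 in E14, 1 after the double target (Rpusd3, by 0.26) and 0 after MSL1 knockdown, with 0 higher in each. Without the block 15 were lower after NSL1 knockdown, 5 after MOF knockdown in PGK12.1 and 1 after the double target. In WD44 and E14 0 were then lower.

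Of 15 mitochondrial translation factors 8 were lower and 1 higher after NSL1 knockdown, 9 lower and 0 higher after MOF knockdown in PGK12.1, and 4 lower and 0 higher in WD44. Mtrf1, a release factor relative, fell by 0.74 after NSL1 knockdown, by 0.58 after MOF knockdown in PGK12.1, by 0.38 in WD44 and by 0.34 in E14. Gfm2, which recycles ribosomes, fell by 0.54 after NSL1 and by 0.26 after MOF knockdown in PGK12.1. Taco1, an activator of cytochrome oxidase translation, fell by 0.59 after NSL1 and by 0.34 after MOF knockdown in PGK12.1. In E14 1 was lower and 1 higher (Oxa1l, which inserts membrane proteins, by 0.21), and after MSL1 and the double target 0 were called. Without the block 6 factors were lower after NSL1 knockdown, 4 after MOF knockdown in PGK12.1 and 0 in WD44 and E14, with 0 higher.

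Genes of mitochondrial RNA processing and stability (15 measured) gave 5 lower and 2 higher after NSL1 knockdown, 7 lower and 0 higher after MOF knockdown in PGK12.1, and 4 lower and 0 higher in WD44, with 0 called elsewhere. Pnpt1, an exoribonuclease, fell by 0.44 after MOF knockdown in PGK12.1. Without the block 5 of the 15 were lower and 2 higher after NSL1 knockdown, and 4 lower and 0 higher after MOF knockdown in PGK12.1. In WD44 0 were then called, and 1 was lower after the double target. Of 10 genes for mitochondrial DNA and transcription 4 were lower and 2 higher after NSL1 knockdown, 1 lower and 2 higher after MOF knockdown in PGK12.1, 0 lower and 2 higher after the double target, and 2 lower in WD44. The 2 higher after NSL1 knockdown are near the 18.4% of all probesets. Without the block 2 of the 10 were lower and 1 higher after NSL1 knockdown. After MOF knockdown in PGK12.1 and after the double target 1 was then higher and 0 lower, and in WD44 0 were called. Polrmt, the mitochondrial RNA polymerase, fell by 0.33 after NSL1 knockdown, while Polg2, the accessory subunit of the DNA polymerase, rose by 0.22.

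Of the 4 measured mitoribosome proteins that carry other symbols, 0 were called in any comparison by limma's test with or without the block. Of 34 cytosolic ribosomal protein genes 6 were lower and 1 higher after NSL1 knockdown (median -0.04), both under the shares of all probesets (21.4% and 18.4%). After MOF knockdown in PGK12.1 0 were lower and 4 higher (median 0.045), where 13.9% and 9.49% of all probesets were. Rpl39l, a relative of Rpl39, rose by 0.51 after MOF knockdown in PGK12.1 and by 0.32 in E14. In WD44 1 was lower and 0 higher, in E14 0 lower and 1 higher, and after MSL1 and the double target 0 were called. Without the block 1 of the 34 was lower after NSL1 knockdown and 3 were higher after the double target, with 0 called in the other comparisons. Among 12 factors known to act upstream of such genes, 2 were higher and 1 lower after NSL1 knockdown, which is no larger a share than that of all probesets. Gabpb1, a partner of GABPA, rose by 0.25 and Ppargc1b by 0.27 after NSL1 knockdown, Thap11 fell by 0.26, and Myc fell by 0.38 after MOF knockdown in PGK12.1, with no other call. Without the block 1 of the 12 was higher and 1 lower after NSL1 knockdown, and 0 were called elsewhere.

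Of 10 ES cell markers, 2 were lower after NSL1 knockdown (Utf1 by 0.25 and Tdgf1 by 0.19), a share near the 21.4% of all probesets. After MOF knockdown 3 were lower in PGK12.1 (Utf1, Tdgf1 and Nanog, by 0.14 to 0.25), where 13.9% of all probesets were, and 1 in E14 (Sox2 by 0.21), where 4.73% were, with 0 higher. Their array medians ran between 11.87 and 11.90 in NSL1 arrays and between 11.80 and 11.98 in control arrays A to E. Of 8 feeder markers measured, 2 were lower after NSL1 knockdown (Pdgfrb by 0.34 and Thy1 by 0.23) 0 were called after MOF knockdown in PGK12.1, and 1 was higher in E14 (Acta2 by 0.55). Without the block 1 ES cell marker was lower after NSL1 knockdown and 1 after MOF knockdown in PGK12.1, with 0 in E14. Feeder markers then gave 2 lower and 1 higher after NSL1 knockdown and 0 called in E14. The part of either marker list in the member values was not tested.

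Many members share a promoter region with a gene that runs the other way. A start on the opposite strand lay within 1000 bases for 26 of the 68 members matched (38.2%) and for 12.3% of 27025 genes. Of 23 such pairs with both genes measured, after NSL1 knockdown 9 members were lower, 9 neighbours were lower and 3 neighbours higher, and in 5 pairs both genes were lower. The share of neighbours higher lay under the 18.4% of all probesets, and that of neighbours lower above the 21.4%. The share of these members that were lower lay under the 54.5% of all members. That share leaves out Mrpl55, Mrps18c and Mrps26, whose neighbours were not measured. They fell by 0.42, 0.63 and 0.60 and were all called lower, so the share depends on this filter. Mrpl46 and Mrps11, whose starts lie 42 bases apart, fell by 0.49 and 0.50. They count from both sides, so both are also among the lower neighbours and enter the 5 pairs more than once. Mrps11 read 8.78, 8.60 and 8.42 in NSL1 arrays and 9.20, 9.11 and 9.05 in controls, with no overlap. Mrpl46 read 8.83, 8.73 and 8.51 in NSL1 arrays and 9.13, 9.27 and 9.25 in controls. The promoter of Mrps11 printed above spans both starts.

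Other pairs moved together or apart. Mrpl21 fell by 0.57 and Ighmbp2, a helicase gene 32 bases away, by 0.37 (adjusted p = 2.94e-05). Mrpl30 fell by 0.52 and Mitd1, 66 bases away, by 0.32, and Mrpl2 by 0.24 and Klc4 by 0.41. Mrpl37 fell by 0.47 while Cyb5rl, 128 bases away, stood at 0.01 (adjusted p = 0.916). Mrpl14 fell by 0.19 and Tmem63b, 131 bases away, rose by 0.25. In Mrps12 and Mrpl50 the neighbour alone was called: Sars2, the mitochondrial seryl-tRNA synthetase, fell by 0.38, and Zfp189 by 0.55. The same held for Mrpl27 and Mrps5, where Eme1 fell by 0.27 and Zfp661 by 0.41. It also held for Mrpl57 and Mrps18b, where Ska3 rose by 0.24 and Ppp1r10 by 0.16. Mrpl49 rose by 0.14 while Fau, which encodes a cytosolic ribosomal protein, stood at -0.12 (adjusted p = 0.0681).

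**Figure D5:**
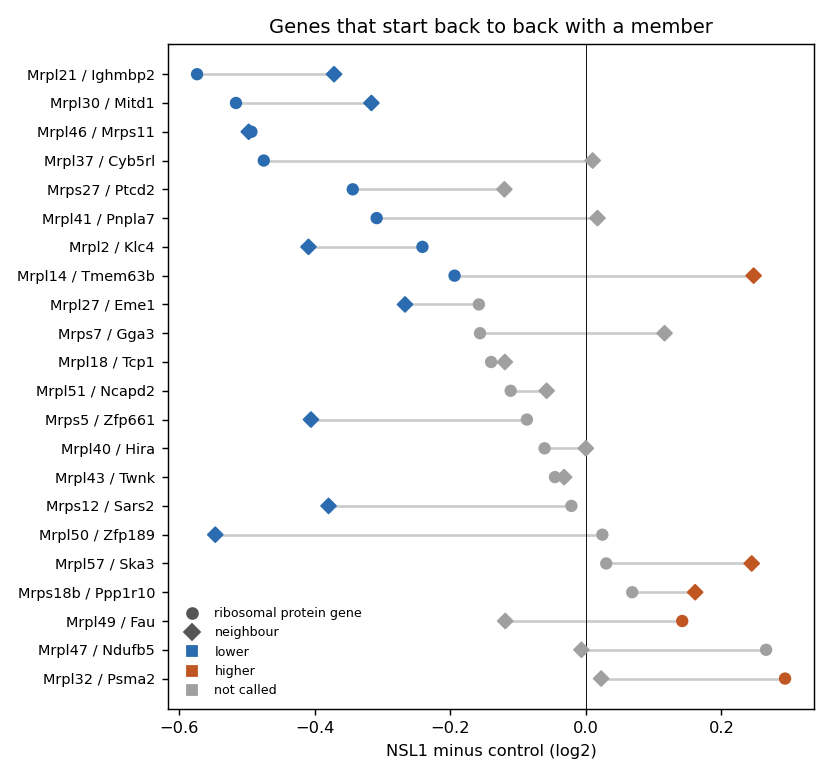
Log2 difference after NSL1 knockdown for members (circles) and the genes that start back to back with them (diamonds), 1 pair per row, blue for lower, orange for higher and grey for not called. Mrpl21, Mrpl30, Mrpl2 and Mrpl46 with Mrps11 have both points in blue, while Mrpl14 and Tmem63b lie on opposite sides of 0.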

How the data were processed

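Expression in 27 arrays was analysed as the log2 values that the authors deposited, 1 per probeset. The submitters' processing notes name Affymetrix Expression Console and RMA, a method that subtracts background, normalizes by quantiles and summarizes probes. Versions and genome build are not given in the sources used here. Nothing was rescaled.

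Arrays fell into 10 groups by their labels. One model over all arrays was fitted in limma 3.58.1 (lmFit and eBayes, under R 4.3.3) with the 12 experiments as a block (9 residual degrees of freedom), because each experiment has its own control array by the labels. An NSL1 or MSL1 value in experiment C thus also draws on the other knockdown there. Deviations of paired arrays correlated at 0.629 to 0.867 for MOF in PGK12.1 and at 0.545 to 0.783 for NSL1. They correlated at only 0.0113 in WD44 and 0.129 in E14, at -0.0461 to 0.358 for MSL1, and at 0.262 and -0.0967 for the double target. In WD44 and E14 the calls that need the block thus rest on a pairing that these values show weakly. Benjamini-Hochberg adjustment ran over 16283 probesets (mean log2 of at least 6 and at least 1 symbol), and calls used an adjusted p under 0.05. Alternatives were a fit without the block with a term for 2 rounds of RNAi (16 residual degrees of freedom), a random block, other scalings, filters and probeset rules, matched arrays only, and each array left out. Arrays give no read depth, and their number limits the precision. The procedure was tested on simulated data. Replicates correlated at 0.981 to 0.996 and none were identical.

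Of 35556 probesets, 21789 had 1 symbol, 1621 several and 12146 none, and symbols were updated through RefSeq. The members and lists were chosen with earlier results of these data known. Genes named were the targeted genes, up to 8 members each way with the smallest adjusted p per comparison among those with the same sign in every experiment, members with a fixed role, and up to 4 genes per other list and comparison. Members or neighbours outside that rule (Mrps26, Mrpl46, Mrps11, Mrpl16, Mrpl14, Mrpl2, Mrpl55, Mrpl57, those with a second probeset and neighbours) were chosen after their values were seen.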

Additional observations from a re-analysis of the deposited data

Results flagged for a closer look

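MOF knockdown differed between cell lines for 3 members by limma's test of the difference itself. Mrpl49 differed by 0.495 (log2, SE 0.09, adjusted p = 0.0164) between E14 and WD44, with effects of 0.39 in E14 and -0.105 in WD44, and was higher in 2 of 2 E14 experiments. Mrpl35 differed by 0.32 between E14 and PGK12.1 (SE 0.08, adjusted p = 0.0449), and Mrpl16 by 0.315 (SE 0.08, adjusted p = 0.0483). Of all probesets, 0.848% were higher in E14 than in WD44 and 1.31% higher than in PGK12.1. With so few members called, these counts are not read as a trait of the members. With array medians centred, 0 members passed between E14 and PGK12.1. No array among the 5 control arrays A to E stood apart from the others in any of the named members' levels tested.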

How the results depend on the processing

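Members named for a small adjusted p kept their direction in every comparison without the replicate block and with each array left out. They also kept it with arrays centred or quantile-normalized together. They were chosen for the same sign in every experiment. For MOF knockdown in each line, the direction with an array left out was therefore fixed by that choice and is no check. Calls were less steady: without the replicate block 20 of these results were still called and 16 were not. After NSL1 knockdown the count of members called stayed within 1.5 times of 46 under all alternatives (38 to 43 with 1 array left out, 38 without the replicate block, 37 of them shared), and after MSL1 knockdown it was 0 throughout. For MOF in PGK12.1 the count of 25 was 9 without the replicate block, 15 with no filter on low values, 12 with matched arrays only, 14 with experiments 1 and 2 only, and 14 to 20 with 1 array left out. For WD44 the count of 7 was 1 without the replicate block, 2 with no filter, 0 with matched arrays only and 0 to 7 with 1 array left out. For E14 the count of 7 was 1 without the replicate block, 1 with no filter, 12 with a minimum mean of 7, 0 with matched arrays only and 0 to 1 with 1 array left out. For the double target the count of 1 was 4 without the replicate block, 7 with a random replicate block, 0 with array medians centred, with quantile normalization, with no filter, with matched arrays only and (chosen after seeing the data) without the WD44 arrays, 3 with a minimum mean of 7, 3 with an intensity trend, 2 with probesets averaged and 0 to 1 with 1 array left out. With array medians centred the difference between E14 and PGK12.1 had 0 members. Large minus small subunit after NSL1 knockdown (-0.0534) was 0.0125 without the replicate block and -0.0532 to 0.0211 with 1 array left out. In WD44 that range was -0.06 to 0.015 and in E14 -0.025 to -0.01. Shares of all probesets were counted only for the fits with and without the replicate block, and are given with the results above. Under the other alternatives, a change in member counts cannot be told apart from a change over all probesets. Fewer arrays or more probesets tested enter some alternatives by construction, and otherwise the cause was not tested. Comparisons with 2 experiments carry the least precision.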
